A study of Mus musculus with 14 samples.

Results

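For a minority of genes, MyoD peaks of activated muscle stem cells (ASCs) fell near the same gene in more than a single place. The genes described here are those given 3 or more separate MyoD regions. The rule used the 3 peak lists of the ASC MyoD libraries. Peaks that overlapped by 1 bp or more were merged, a merged region was kept when at least 2 of the 3 libraries had a peak in it, and each region took the deposited gene name of its peak with the highest score. Of 1412 genes named for at least 1 region, 59 had 3 or more (4.18%, the share that the rule itself fixes), 204 had 2 and 1149 had 1. These 59 genes held 205 of the 1985 regions. Numbered Gm gene models were left out, as the rule asks (223 regions, with 2 such models at 3 or more regions). Because the members were chosen on these peaks, their number of regions, spacing, gene parts and scores in the ASC MyoD libraries are described without a test.

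The cells came from wild-type mice carrying a mito-Dendra2 allele that a Pax7-Cre(ERT2) driver switches on, so that muscle stem cells and their progeny glow after tamoxifen, which was given at 75 mg/kg on 5 days. The tibialis anterior muscle was then injured with 50 uL of 1.2% BaCl2, and the contralateral muscle was injected with saline. Cells were sorted 2 days after injury, ASCs as CD34-, Dendra2+, DAPI- cells from injured muscle and quiescent stem cells (QSCs) as CD34+, Dendra2+, DAPI- cells from the uninjured muscle. Chromatin was recovered with an antibody to MyoD (sc-32758X) or MyoG (F5D), which with both cell states gives 4 groups of 3 libraries each (named by cell state and antibody, as in ASC MyoD). Peak lists hold no expression values, so the sorted cell type could not be checked against marker genes here, and the sort yields every Dendra2+ cell of the chosen CD34 state, at whatever stage after activation.

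MyoD is a basic helix-loop-helix transcription factor that commits cells to the muscle lineage and binds E-boxes, short motifs with the core CANNTG. It is scarce in quiescent muscle stem cells and accumulates as they activate after injury. MyoG acts later, as myoblasts leave the cell cycle and differentiate. Muscle genes are often governed by several enhancers at once, spread over the gene body and its flanks, so that a gene with several bound regions is a usual finding for a lineage factor.

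Each peak carries a MACS score, 10 times the negative log10 of its p-value, and no peak in the lists was under 50.0 (a p-value of 1e-05). The ASC MyoD lists held 2652, 2262 and 2296 peaks. The number of reads per library is unknown, and a score grows with depth, so scores describe how firmly a peak was called and not how strongly the protein was bound. A peak call in a mixed population also cannot tell apart binding in more cells from firmer binding in each cell. Coordinates are those of the lists, on mm10.

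A sequence view was possible where a region covers a transcription start site. RefSeq promoter windows (GRCm38.p6, the assembly behind mm10) were available for 37 of the 59 genes, and the 250 bases before a start lay wholly inside a member region for 9 windows. The E-box with the letters CAGCTG reads the same on either strand. The related E-box with the letters CAGGTG was looked for on both strands, and no match of either motif can overlap a match of the other. At least 1 of them was present in 66.9% of the 133 such windows inside an ASC MyoD region of any gene, and in 27.7% of all 32817 windows in the table. For CAGCTG alone the shares were 44.4% and 13.0%. The windows below are shown because they sit inside regions described here, 4 with a motif and 1 without, each written 5′ to 3′ on the gene's strand and ending at the base before the start, with the motif in capitals.
Tbc1d1 (chr5:64160010-64160259, plus strand): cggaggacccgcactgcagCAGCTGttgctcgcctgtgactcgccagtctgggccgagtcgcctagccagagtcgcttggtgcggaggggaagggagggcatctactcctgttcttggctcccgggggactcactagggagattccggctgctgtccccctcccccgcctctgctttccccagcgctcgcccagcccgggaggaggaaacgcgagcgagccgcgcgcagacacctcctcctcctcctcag
Acta1 (chr8:123894776-123895025, minus strand): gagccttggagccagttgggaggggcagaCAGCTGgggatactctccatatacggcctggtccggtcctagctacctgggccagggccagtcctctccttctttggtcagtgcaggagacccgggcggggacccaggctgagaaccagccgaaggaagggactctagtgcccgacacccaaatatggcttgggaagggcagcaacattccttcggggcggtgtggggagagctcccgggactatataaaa
Rbm24 (chr13:46418050-46418299, plus strand): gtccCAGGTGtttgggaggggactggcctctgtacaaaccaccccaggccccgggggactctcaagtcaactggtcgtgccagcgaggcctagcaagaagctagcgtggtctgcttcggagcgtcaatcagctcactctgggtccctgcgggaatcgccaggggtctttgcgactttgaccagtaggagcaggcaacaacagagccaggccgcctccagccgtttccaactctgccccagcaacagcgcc
Arpp21 (chr9:112187767-112188016, minus strand): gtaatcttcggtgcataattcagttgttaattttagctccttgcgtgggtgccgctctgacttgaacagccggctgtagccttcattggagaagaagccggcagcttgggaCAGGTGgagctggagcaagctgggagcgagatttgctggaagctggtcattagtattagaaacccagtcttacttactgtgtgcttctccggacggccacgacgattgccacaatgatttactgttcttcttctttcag
Mef2c (chr13:83503784-83504033, plus strand): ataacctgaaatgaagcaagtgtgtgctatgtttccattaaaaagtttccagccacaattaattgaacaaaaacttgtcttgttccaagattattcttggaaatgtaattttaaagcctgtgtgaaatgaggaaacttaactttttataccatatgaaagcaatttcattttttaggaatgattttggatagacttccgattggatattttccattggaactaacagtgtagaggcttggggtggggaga
The motif lay 231 bases before the start in Tbc1d1, 221 in Acta1, 246 in Rbm24 and 139 in Arpp21. Of the 9 windows, 4 held a motif. The Mef2c window held neither, nor did the windows of Itgb6 and Lincmd1 and those of the other two starts of Arpp21, which overlap the printed one. A match is a description of these letters and does not mark a bound site, and a window without a match says nothing about the rest of its region.

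The same set includes a microRNA gene, Mir206, whose product is restricted to skeletal muscle. Its mature strands are printed because the 3 regions below are read against the gene that makes them, with the seed (bases 2 to 8) in capitals.
mmu-miR-206-3p (chr1:20679055-20679076, plus strand): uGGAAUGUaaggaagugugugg
mmu-miR-206-5p (chr1:20679017-20679039, plus strand): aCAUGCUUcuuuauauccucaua

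The gene with the most regions is a special case. Galnt2l (ENSMUSG00000092329) was given 13 regions on chromosome 8, from 120046320 to 123896700, a stretch of 3850.4 kb. Of these, 8 were annotated to intron 1 of a 15-intron model and 5 to promoters. The name has no entry in the RefSeq table, and 69 protein-coding RefSeq genes lie between the first and the last region. By position, 11 of the 13 regions overlap the body of another gene. Gse1 holds 3, Cbfa2t3 and Cdh15 hold 2 each, and Crispld2, Slc7a5, Piezo1 and Acta1 hold 1 each.

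By position, the most firmly called region of the 13 belongs to Cdh15, which encodes M-cadherin, the adhesion molecule of muscle stem cells and myoblasts. At chr8:122850294-122852459, 1.94 kb from its companion on the same gene, scores were 370.0, 354 and 548 in replicates 1, 2 and 3 (mean 424 ± 108 (SD, n = 3)). The companion region at chr8:122848907-122849963 scored 85.8, 58.2 and 53.0. The last region, chr8:123894687-123896700, covers the start of Acta1, the skeletal alpha-actin gene whose promoter window is printed above, and scored 136, 86.8 and 68.3. The 3 regions on Gse1, a chromatin corepressor subunit, scored 77.2 and 52.1 in replicates 1 and 2 at chr8:120251077-120252102, 210.0, 71.6 and 176 in the 3 replicates at chr8:120264535-120266330 and 298, 245 and 189 at chr8:120448881-120450261. On Cbfa2t3, a transcriptional corepressor, chr8:122636584-122637735 scored 191, 87.3 and 86.2 and chr8:122651033-122652258 scored 169, 156 and 171. The other regions had mean scores of 96.9 on Crispld2 (chr8:120046320-120047195), 60.1 on Slc7a5 (chr8:121901377-121902511), 57.2 on Piezo1 (chr8:122522800-122524012), 63.5 beside Acsf3 (chr8:122769195-122770188) and 80.7 at 7.93 kb from Acta1 (chr8:123882861-123883825). The 13 regions thus lie on or nearest to 8 RefSeq genes, and summaries over the 59 genes are also given without them.

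When every region was instead named by the nearest RefSeq gene body, 75 genes reached 3 regions and 53 of them were among the 59. Only bodies of protein-coding and microRNA genes were used for this naming, without numbered Gm models, so other noncoding genes could not be the nearest. The 6 members that did not were Dusp10, Galnt2l, Lrrc28, Mef2c, Mnat1 and Tpcn1. Naming by gene body was added after the data had been seen.

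**Figure D1:**
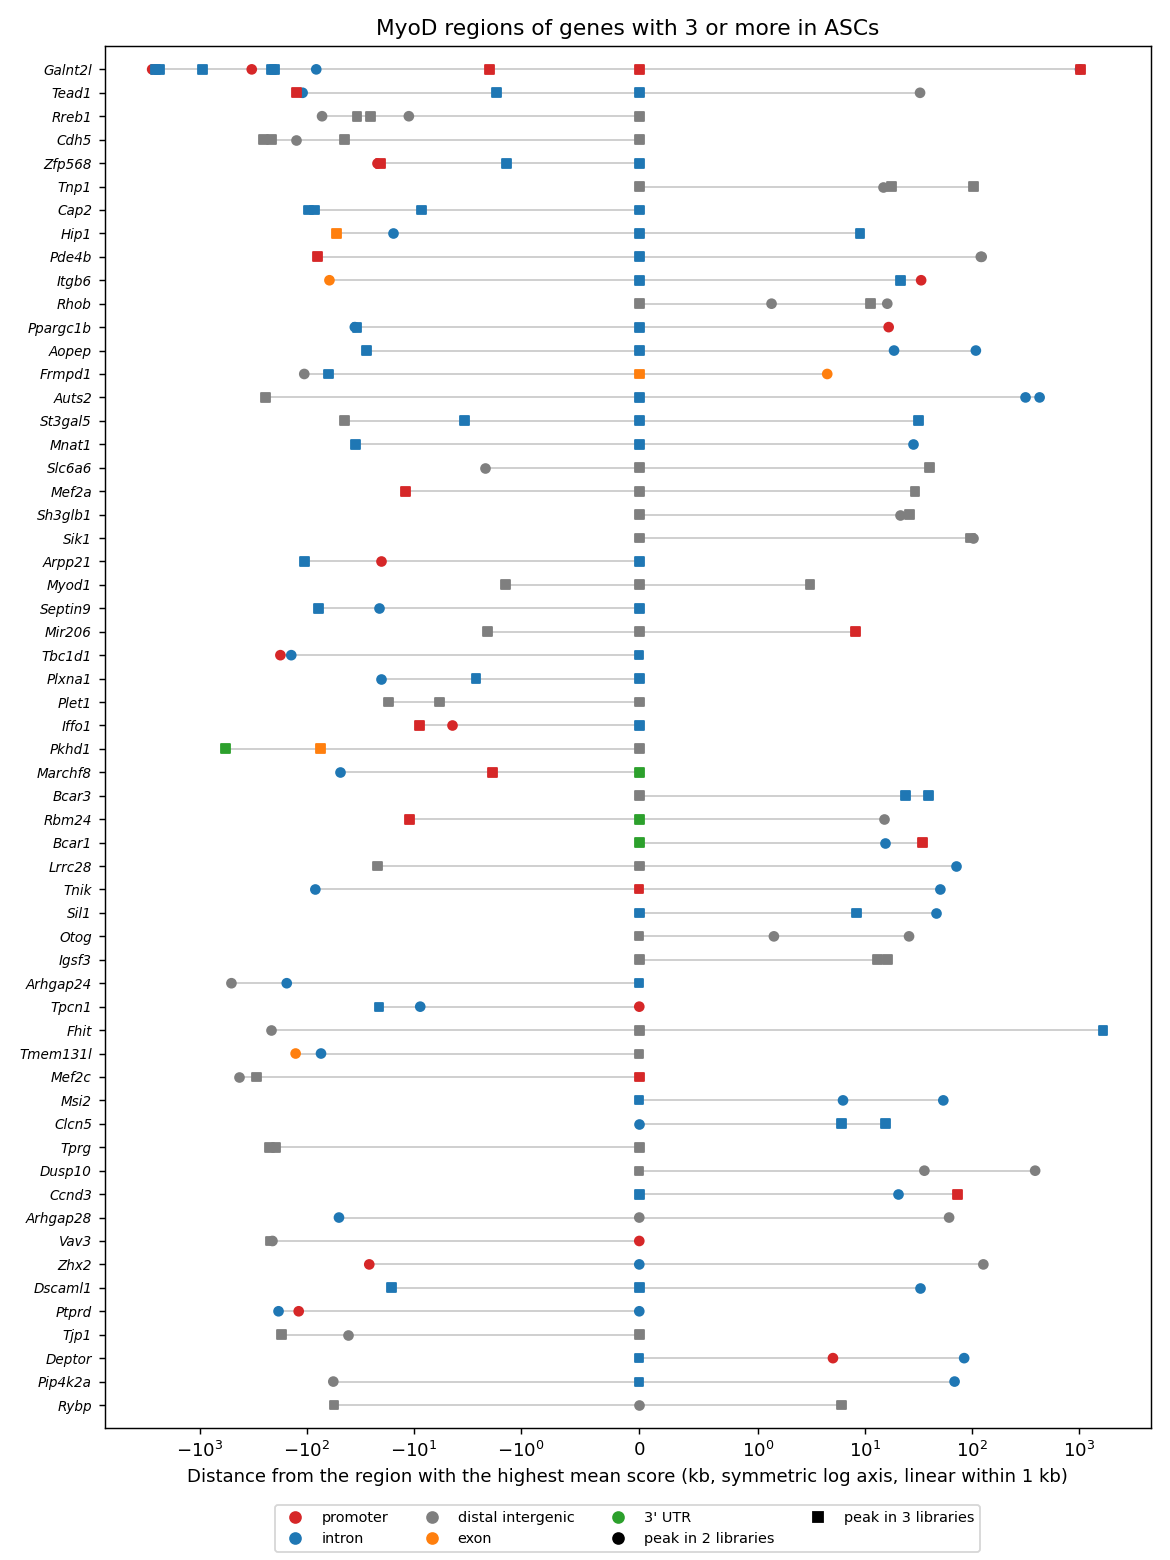
Each line is 1 of 58 genes with 3 or more ASC MyoD regions, ordered by number of regions and then by the average of the mean scores of the gene's regions. Each mark is a region at its distance in kb from the gene's region with the highest mean score (symmetric log axis). Colour gives the gene part, circles have a peak in 2 libraries and squares in 3. Galnt2l and Fhit have the widest spread, over 3850.4 and 1908 kb, whereas the 3 regions of Myod1 lie within 5.51 kb.

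The genes included core factors of the myogenic program. Of 23 muscle transcription factor names listed (21 in the RefSeq table), 6 had any region and 3 were members (Myod1, Mef2a and Mef2c), beside 4.18% of all genes with a region. This list and those below were chosen with earlier results of these data known, and each has few genes with a region. Their counts of members are therefore a description and no test of the lists. Myod1 encodes MyoD itself. Its 3 regions lay upstream of the gene, between 22.5 and 27.0 kb from the body, inside 5.51 kb. Scores were 239.7, 130.2 and 76.0 in replicates 1, 2 and 3 at chr7:46348425-46349445, 109.5, 247 and 129 at chr7:46349729-46350895 and 154, 73.3 and 98.0 at chr7:46352821-46353939. All 3 libraries had a peak in each region, but the libraries did not rank the regions alike, with replicate 1 highest in the first region and replicate 2 in the next. The 3 regions named for the adjacent gene Otog, which encodes an inner-ear protein, continue the same series. They lie between Otog and Myod1, at 3.81 to 29.8 kb from Otog, and with the Myod1 regions make 6 regions within 38.7 kb (chr7:46315243-46353939). These numbers depend on the merging of peaks. With merging within 500 bp, Myod1 and Otog had 2 regions each and were no longer members. The region nearest to Otog scored 234, 95.6 and 77.3, and the others scored 69.8 and 59.9 in replicates 2 and 3 and 120.0 and 76.8 in replicates 1 and 3.

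Mef2a and Mef2c encode MADS-box factors that act with MyoD at muscle promoters. The promoter region of Mef2a, chr7:67372941-67374051, scored 118, 111 and 90.9, within 1 kb of the start. A region 12.7 kb upstream, chr7:67384763-67386253, was called more firmly in every library, at 289, 276 and 209 (mean 258 ± 42.9 (SD, n = 3), against 107 ± 14.0 (SD, n = 3) at the promoter). The region 42.1 kb upstream scored 101, 87.3 and 86.2. Beyond it, Lrrc28, a leucine-rich repeat gene, was named for 3 regions, of which 2 lie between the Mef2a and Lrrc28 bodies. They scored 103, 105 and 95.5 and, at the one with the higher mean score, 167, 215 and 91.6. With those of Mef2a, 6 regions span 165 kb. The third, in intron 7 of Lrrc28, scored 59.3 and 54.6 in replicates 1 and 3.

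Mef2c differed in layout. Its promoter region, chr13:83503660-83504689, had the highest scores of the gene, 129.8, 126 and 79.5, and covers the window printed above. Its other regions lay 296 and 427 kb upstream, with scores of 65.1, 78.2 and 73.2 and of 67.3 and 51.2 in replicates 1 and 2.

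Mir206 had 3 regions in 11.1 kb, all with peaks in the 3 libraries. The region 0.639 kb from the microRNA was annotated as a promoter and scored 132, 109.9 and 65.1. The regions at 8.13 kb and a further 2.05 kb from it scored 175, 159 and 139 and 117, 121 and 229, the latter highest in replicate 3. The region at chr1:20669502-20670252 covers the start of Lincmd1, the noncoding RNA of this locus. The next named gene, Pkhd1 (fibrocystin, a ciliary protein of kidney and liver), had a region 33.0 kb away, at chr1:20633161-20634261, with scores of 126, 197 and 129. Its remaining regions lay in an exon (125, 67.6 and 61.8) and the 3′ UTR (124, 139.8 and 77.0) of this 560.3-kb gene.

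Rbm24 encodes an RNA-binding protein that controls muscle-specific splicing. Its promoter scored 134, 123 and 92.7, its 3′ UTR 118, 202 and 139 and a region 12.7 kb beyond the gene 64.5 and 66.5 in replicates 1 and 2. Its neighbour Cap2 encodes a cyclase-associated protein that recycles actin monomers. The 4 regions of Cap2 were all in introns and all had peaks in the 3 libraries. The region in intron 7 (chr13:46619289-46620334) was the highest at 228, 227 and 117, followed by intron 1 at 159.8, 128 and 89.0, intron 3 at 81.5, 105 and 62.8 and intron 6 at 66.9, 72.0 and 102. Rbm24 and Cap2 together held 7 regions within 202.5 kb, the closest regions of the genes being 77.7 kb apart.

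**Figure D2:**
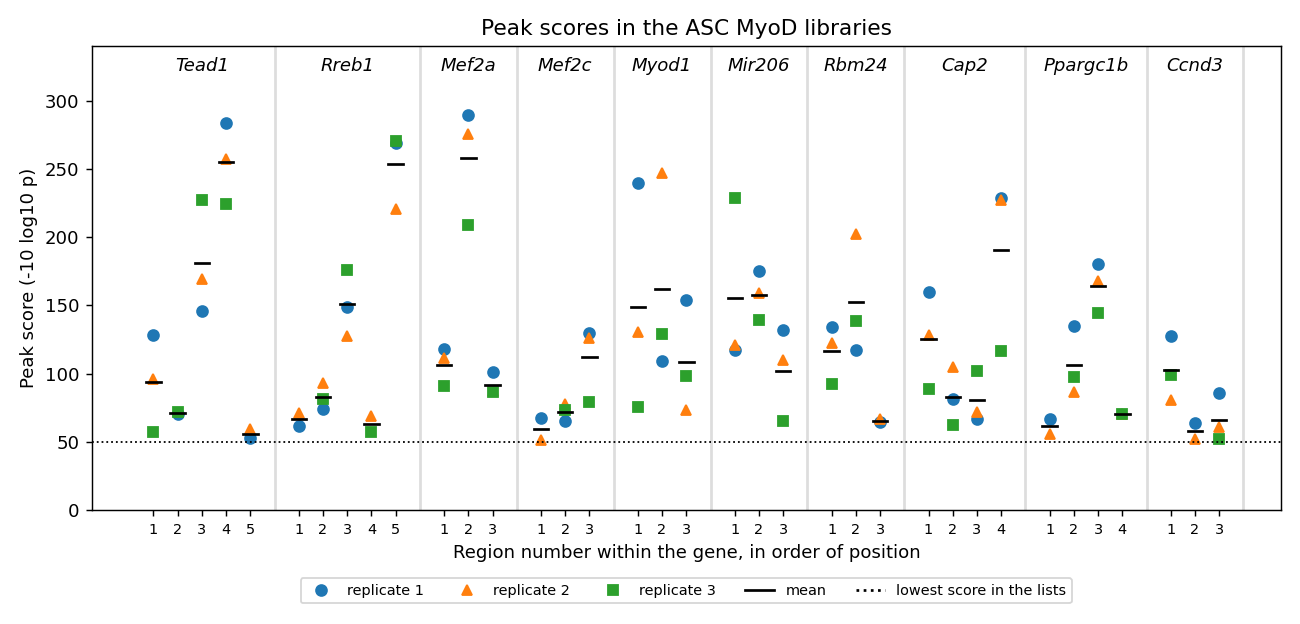
Peak scores (minus 10 log10 p) in the 3 ASC MyoD libraries for each region of 10 member genes, numbered by position within the gene. Coloured marks are libraries, black bars are means over the libraries with a peak, and the dotted line is the lowest score in the lists (50.0). In Rreb1 and Mef2a a single region stood above the others in all 3 libraries, whereas the regions of Myod1 and Mir206 overlapped in score.

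Other regulators of transcription were also among the genes with most regions. Tead1 (ENSMUSG00000055320) encodes the DNA-binding partner of Yap and Taz in the Hippo pathway, which reads MCAT elements of muscle genes. Of 19 Runx, Tead and AP-1 genes listed, 5 had any region and Tead1 alone was a member, beside 4.18% of all genes with a region. Its promoter region, chr7:112760401-112761516, scored 128, 95.8 and 57.5. A pair of regions in intron 9, 1.68 kb apart, scored 146, 169 and 227 at chr7:112883530-112884605 and 284, 257 and 224 at chr7:112885251-112886250. The pair in intron 9 exceeded the promoter in every library. The regions with the lowest mean scores were in intron 2 (chr7:112775615-112776726, 70.6 and 72.2 in replicates 1 and 3) and 11.3 kb past the gene (chr7:112918103-112919097, 53.0 and 59.3 in replicates 1 and 2).

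Rreb1 (ENSMUSG00000039087) encodes a zinc-finger factor downstream of Ras. None of its 5 regions lay on the gene. They lay in a stretch of 73.1 kb that ends 85.6 kb before its body, with no protein-coding gene between. The region nearest to the gene, chr13:37691620-37692773, scored 269, 220.3 and 271 (mean 253 ± 28.6 (SD, n = 3)), and a region in the middle, chr13:37666192-37667331, scored 149, 127 and 176. The others scored lower in each library that had a peak, at 74.0, 93.1 and 81.2 (chr13:37657791-37658761), 61.9 and 71.2 in replicates 1 and 2 (chr13:37619652-37620582) and 68.7 and 57.4 in replicates 2 and 3 (chr13:37680618-37681567).

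Zfp568 (ENSMUSG00000074221) encodes a KRAB zinc-finger repressor. Its 4 regions formed pairs, and with merging within 500 bp it had 2 regions and was no longer a member. In intron 6, chr7:30007753-30008996 scored 424, 265 and 219 and chr7:30009112-30010336, 1.35 kb away, scored 435, 216 and 411. At the promoter, chr7:29988703-29989702 scored 139, 94.8 and 80.5 and chr7:29987293-29988263 scored 52.2 and 61.5 in replicates 1 and 2.

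Ppargc1b encodes PGC-1β, a coactivator of mitochondrial gene expression. Of 26 mitochondrial regulator genes listed, 5 had any region and Ppargc1b alone was a member, beside 4.18% of all genes with a region. Ppargc1b had 3 regions in intron 1 and a promoter region. The highest was in the intron at chr18:61379862-61380915, with scores of 180.2, 168 and 144, and another intronic region scored 135, 86.5 and 97.3. The third intronic region, 1.67 kb from the latter, scored 66.8 and 56.0 in replicates 1 and 2. The promoter had a peak in only 2 libraries and scored 70.6 and 70.6 in replicates 2 and 3.

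Further nuclear regulators had lower-scoring or wider sets. Auts2, a gene of neuronal development whose product joins a Polycomb complex, had 4 regions over 678 kb, the highest in intron 5 at 124, 125 and 61.9. Rybp, a subunit of Polycomb complex PRC1, had 3 distal regions at 38.5 to 99.997 kb from its body. The highest mean of Rybp, 74.7, was the lowest such maximum of the 59 genes. Zhx2, a zinc-finger and homeobox repressor, had no region with peaks in all 3 libraries. Msi2, an RNA-binding protein of progenitor cells, had 3 intronic regions with a maximum of 154, 78.3 and 63.4.

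Genes of the actin cytoskeleton, small GTPase signalling and adhesion followed. Of 60 small GTPase and actin genes listed, 14 had any region and Arhgap24 and Vav3 were members, beside 4.18% of all genes with a region. Arhgap24, which switches off Rac, had 3 regions over 509 kb, and the highest, in intron 3 at chr5:102783510-102784366, scored 133, 66.2 and 194. Its other regions scored 82.4 and 69.9 in replicates 1 and 3 and 78.0 and 65.3 in replicates 1 and 3. The latter was annotated as distal intergenic but overlaps the RefSeq body of the gene. Vav3, an exchange factor that activates small GTPases, had a promoter region (chr3:109496254-109497095) at 76.3 and 99.0 in replicates 1 and 2 and distal regions at 52.4, 115 and 61.8 and at 62.1 and 51.5 in replicates 1 and 2.

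Rhob encodes an endosomal small GTPase, was on none of the lists, and had 4 distal regions packed into 17.5 kb, 46.3 to 62.6 kb past the 3′ end of the gene. The outermost, chr12:8433804-8435014, scored 174, 74.0 and 132, and its neighbour 1.34 kb away scored 92.7 and 112 in replicates 2 and 3, the closest pair within any of the 59 genes. The others scored 93.4, 76.3 and 93.2 and 125 and 64.6 in replicates 1 and 2. Arhgap28, another GTPase-activating protein, had 3 regions, none with peaks in all 3 libraries, and mean scores from 63.7 to 89.0.

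Bcar1 and Bcar3 encode partner adaptors at focal adhesions. For Bcar1 the 3′ UTR region (chr8:111710569-111711925) scored 231, 209 and 184, well above its promoter at 60.9, 77.6 and 73.8, and an intron 1 region had the lowest mean score of all 205, 52.5. For Bcar3 the highest region lay 4.16 kb before the gene and scored 136, 138 and 171. Septin9, a filament-forming GTPase, reached 204, 185 and 166 in intron 3, Plxna1, a semaphorin receptor, 292, 202 and 242 in intron 3, and Tnik, a kinase of the Wnt pathway and the cytoskeleton, 187, 188 and 104 at a promoter 2-3 kb from a start.

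Itgb6 encodes the integrin β6 subunit. Its intron 1 held regions at 213, 167 and 116 (chr2:60688877-60689489) and 135, 142 and 74.1, both above, in mean score, its promoter (65.6 and 81.3 in replicates 1 and 3) and exon 10 (55.8 and 57.1 in replicates 1 and 3). Cdh5 (ENSMUSG00000031871) encodes the endothelial cadherin. Its 5 regions all lay between Cdh11 and Cdh5, with no other protein-coding gene between, numbered Gm models aside. They were 350.5 to 606 kb from Cdh5 and farther than that from Cdh11. The region nearest to Cdh5, chr8:103749964-103751119, scored 191, 88.8 and 59.5, and the next, chr8:103705832-103706654, scored 77.0, 59.2 and 119. The others were 54.0 and 64.1 in replicates 1 and 2 (chr8:103623696-103624600), 63.4, 60.4 and 93.2 (chr8:103534625-103535500) and 58.3, 61.7 and 52.7 (chr8:103494447-103495404). Replicate 1 was highest at the region nearest to Cdh5 and replicate 3 at the next. Tjp1, the tight-junction scaffold ZO-1, had 3 regions annotated as distal, of which 2 overlap its RefSeq body, with a maximum of 113, 91.4 and 78.8. Igsf3 and Dscaml1, immunoglobulin-superfamily adhesion proteins, reached mean scores of 117 and 79.4, and Ptprd, a receptor tyrosine phosphatase, 78.6.

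Among cell-cycle and signalling genes, Ccnd3 encodes cyclin D3, which drives the G1 phase and persists in differentiating muscle. Of 28 cell-cycle genes listed, 5 had any region and Ccnd3 alone was a member, beside 4.18% of all genes with a region. Intron 1 held regions at 128, 80.9 and 99.1 (chr17:47521338-47522505) and at 63.7 and 52.2 in replicates 1 and 2, and the promoter scored 86.0, 60.9 and 52.0. Mnat1 encodes an assembly factor of the kinase that activates cyclin-dependent kinases, and its intron 7 held the most firmly called of all 205 regions (chr12:73241590-73242747), at 574, 358 and 505. Its other regions scored 168, 79.3 and 89.2 in intron 6 and 79.8 and 68.1 in replicates 1 and 2. The last of them also overlaps the body of Trmt5.

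Hip1 encodes a clathrin adaptor, and Pde4b a cAMP phosphodiesterase. Within intron 1 of Hip1, chr5:135512771-135513863 scored 302, 327 and 225 while its other regions scored 84.7 and 50.1 in replicates 1 and 3, 88.1, 51.1 and 63.6 and, in exon 2, 58.5, 61.9 and 56.5. For Pde4b the intron 7 region (chr4:102511143-102512295) scored 168, 221 and 125, the promoter 83.8, 100.4 and 92.3, and a distal pair 105 and 91.3 in replicates 1 and 2 and 56.1 and 131 in replicates 1 and 3. The intron 1 region of Hip1 was the highest of the gene in every library, whereas in replicate 3 the last distal region of Pde4b exceeded its intron 7.

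Sik1, a kinase held in check by cAMP signalling, had a distal region (chr17:31790244-31791611) with scores of 376, 227 and 279, while its close pair on the other side of the gene stayed at mean scores of 83.6 and 62.1. Tbc1d1, a Rab-GTPase regulator of glucose uptake in muscle, reached 295, 289.7 and 123 in intron 19 (chr5:64336462-64337568), above its promoter (89.8 and 94.2 in replicates 1 and 3), which holds the window printed above. Arpp21, a cAMP-regulated phosphoprotein gene, reached 411, 196 and 236 in intron 1 (chr9:112207417-112208471), and its promoter had 66.7 and 62.6 in replicates 2 and 3. Deptor, an inhibitor of mTOR, and Dusp10, a phosphatase of stress-activated kinases, had maxima of only 76.0 and 101 in mean score, and the Dusp10 regions lay 128 to 185 kb from the gene. Pip4k2a, a phosphoinositide kinase, reached 77.0.

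Transporters, membrane and trafficking genes made up another group. Slc6a6, the taurine transporter, had a distal region (chr6:91619033-91621191) at 231, 295 and 292, Sh3glb1, endophilin B1, a distal region (chr3:144643147-144644365) at 376, 257 and 135, and Clcn5, a chloride-proton exchanger and the only X-linked member, 3 regions in intron 3 with a highest mean of 84.2. Marchf8, a membrane-bound ubiquitin ligase, had its 3′ UTR at 140.3, 116 and 143 and a promoter region 1.81 kb away at 189.7, 111 and 88.2. Tpcn1, an endolysosomal cation channel, reached a mean of 95.0 at its promoter, and Sil1, a chaperone exchange factor, 155 in intron 3. St3gal5, the GM3 ganglioside synthase, had 4 regions with peaks in all 3 libraries and a maximum of 107 in intron 1.

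Several members have no settled role in muscle. Tnp1 (ENSMUSG00000026182) encodes a sperm chromatin protein, and its 4 regions lay 38.9 to 62.6 kb from its body, 3 of them in the interval between Igfbp5 and Tnp1 and 1 beyond Tnp1. The highest, chr1:72951183-72952516, was 76.3 kb from Igfbp5, an insulin-like growth factor binding protein, and scored 304, 224 and 145. The remaining regions scored 176, 56.5 and 81.1 (chr1:72969184-72970083), 56.4, 96.7 and 89.5 (chr1:73054822-73055686) and 92.7 and 64.4 in replicates 1 and 2 (chr1:72966079-72967081). Plet1, a surface protein of placenta and epithelia, had 3 distal regions within 18.05 kb, all with peaks in the 3 libraries and with mean scores from 117 to 137. Aopep, an aminopeptidase gene, and Frmpd1, a FERM and PDZ domain gene, had 4 regions each, with maxima of 119.7 and, in an exon, 139. Iffo1, an intermediate-filament family gene, had 3 regions within 11.0 kb and a maximum of 146. Fhit, a large fragile-site gene, had neighbouring regions up to 1692 kb apart, and Tmem131l and Tprg reached 111 and 101.

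The regions of a gene mostly lay closer than 100 kb. The median distance between midpoints of neighbouring regions was 29.9 kb over 146 gaps, with a range from 1.34 to 1692 kb. Of these gaps, 22 (15.1%) were under 5 kb and 120 (82.2%) under 100 kb. Genes with exactly 2 regions had a median of 28.3 kb over 204 gaps, so the spacing did not set the 59 genes apart from them. Neighbouring regions of any gene on a chromosome were 450.1 kb apart in the median (1965 gaps), a distance that is not limited by the naming of regions after nearby genes. Without Galnt2l the median was 27.7 kb. A total of 19 members had regions within 5 kb of each other, 7 spanned under 20 kb and 26 over 100 kb. Across the 58 members in the RefSeq table, the span rose with the length of the gene body (Spearman's correlation coefficient 0.618, over genes, which are not independent replicates). The median body was 140 kb in members, 109 kb in genes with 2 regions and 47.4 kb in genes with 1, so members were the longest genes in the median.

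**Figure D3:**
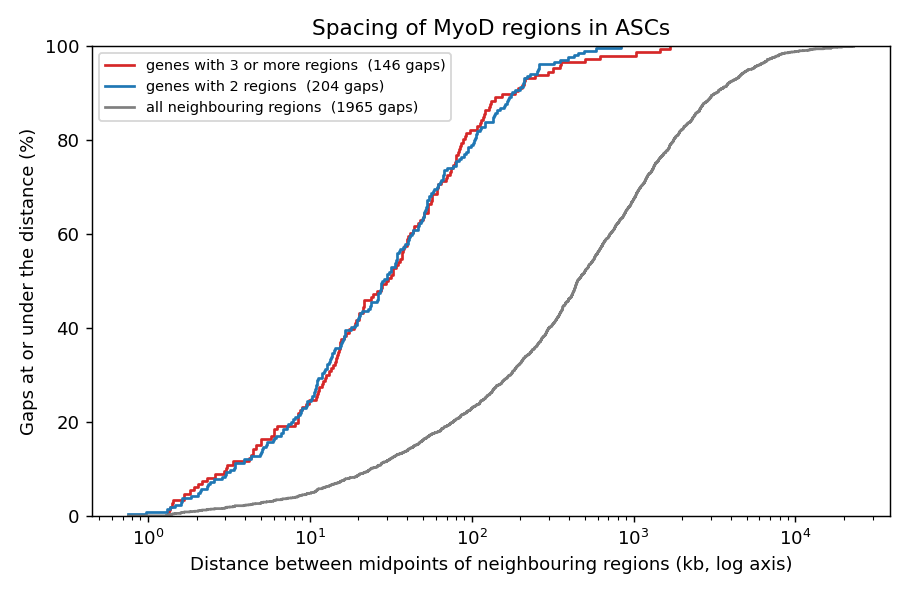
Cumulative share (%) of distances in kb (log axis) between midpoints of neighbouring ASC MyoD regions, for genes with 3 or more regions, genes with 2 regions and all neighbouring regions on a chromosome. The curves of the first sets lie on each other around medians of 29.9 and 28.3 kb, and the third is shifted to a median of 450.1 kb.

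Fewer of the members' regions were at promoters than over all regions. Introns held 87 of the 205 regions (42.4%, against 35.2% of all 1985), distal intergenic sequence 79 (38.5%, against 35.5%), promoters within 3 kb of a start 29 (14.1%, against 22.7%), exons 6 (2.93%, against 4.03%) and 3′ UTRs 4 (1.95%, against 2.27%). By library, the promoter share of member regions with a peak was 13.8%, 11.8% and 15.2% in replicates 1, 2 and 3 (mean 13.6% ± 1.70, SD, n = 3). In genes with 1 region it was 27.0%, 27.2% and 26.3%, and in genes with 2 regions 15.3%, 14.7% and 14.9%. The members and the genes with 2 regions thus overlapped in promoter share, and both lay below genes with 1 region in each library. For distal intergenic regions the shares were 38.5%, 40.8% and 37.4% in members and 26.5%, 25.7% and 28.3% in genes with 2 regions. Genes with 1 region lay between them, at 33.0%, 32.6% and 32.5%, with 35.5% over all regions. The rule counts every region for more than 1 library, so the shares of the libraries rest largely on the same regions. That the library values of these sets do not overlap is therefore not a spread between independent replicates. These libraries are those that chose the members, so the shares are a description. Without Galnt2l the shares of the members were 12.5% promoter, 41.1% intron and 41.1% distal.

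**Figure D4:**
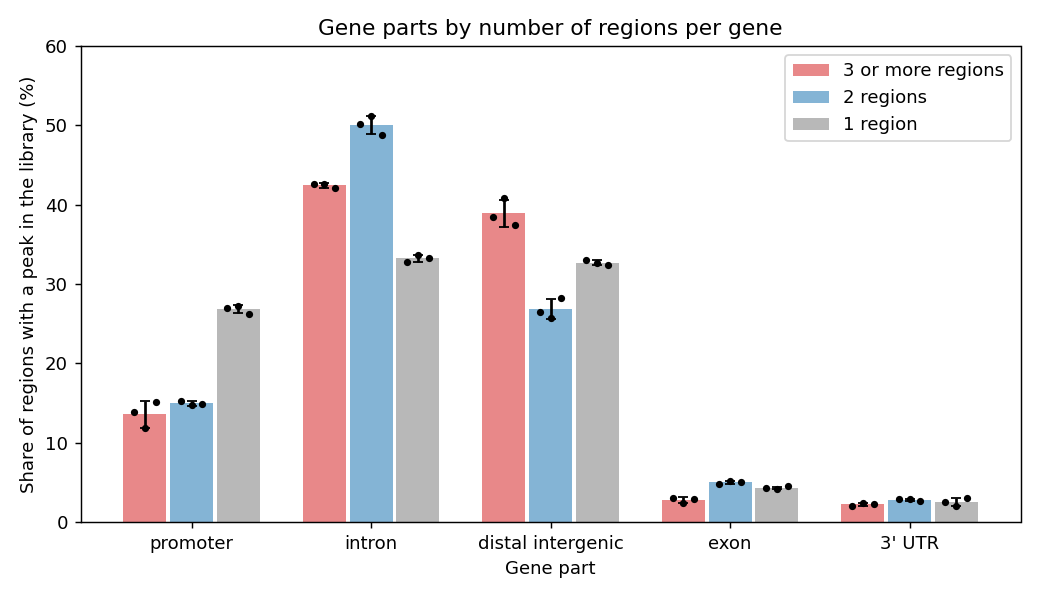
Share (%) of regions with a peak in the library that fall in each gene part, for genes with 3 or more, 2 or 1 ASC MyoD regions. Bars are means over the 3 libraries, whiskers SD and black points the libraries, and the promoter share is 13.6% in genes with 3 or more regions and 26.8% in genes with 1.

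Most members mixed gene parts. In 35 genes the regions fell in at least 2 parts, in 15 all were distal intergenic (Myod1, Rreb1, Cdh5, Rhob, Tnp1 and Plet1 among them) and in 9 all were intronic (among them Cap2, Mnat1 and Septin9). A promoter region plus another region was found in 23 genes, and in 18 of these the highest mean score was away from the promoter, as at Mef2a, Tead1 and Tbc1d1. The promoter was highest in 5, among them Mef2c, Vav3 and Tnik. The other regions of these 23 genes outnumbered the 29 at promoters, so these counts do not rank promoters below other parts. Over all member regions the median mean score was 92.0 at promoters, 80.9 in introns and 87.6 in distal regions. Of 87 intronic regions, 31 were in intron 1 (23 of 79 without Galnt2l). All regions lay on the body of the named gene in 23 of the 58 genes in RefSeq, none did in 15, and in 13 every region was over 10 kb away. Of the 79 distal regions, 72 had the named gene as a direct protein-coding neighbour and 3 lay on a protein-coding RefSeq body.

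Scores did not set the members apart. Mean scores of their regions had a median of 84.8 (52.5 to 479), compared with 84.5 in genes with 2 regions, 81.1 in genes with 1 and 82.3 over all regions. By part, the median was 92.0 at promoters, 80.9 in introns, 87.6 in distal regions and 143 in the 4 regions at 3′ UTRs (of Bcar1, Marchf8, Pkhd1 and Rbm24). Peaks in all 3 libraries were present in 125 of the 205 regions (61.0%, against 55.8% of all regions), with 195, 169 and 171 regions covered by replicates 1, 2 and 3. In 10 genes every region had peaks in all 3 libraries (among them Cap2, Mef2a, Mir206 and Myod1), 17 had at least 3 such regions, and 3 (Arhgap28, Ptprd and Zhx2) had none. At the threshold, the 43 genes with exactly 3 regions and the 204 with exactly 2 had median scores of 84.2 and 84.5 and peaks in all libraries for 58.9% and 58.6% of regions. If a peak in 1 library were enough, 81 of those 204 genes would reach 3 regions and 217 genes would in all.

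A library left out of the choice gave a view that the rule had not fixed. Genes with 3 or more regions were chosen from 2 libraries, with a peak in both required, and their regions were looked up in the other. With replicate 1 held out, 25 genes were chosen and 89.4% of their regions had a peak in replicate 1. With replicate 2 held out, 32 genes gave 77.5%, and with replicate 3 held out, 33 genes gave 78.1%. For genes with 2 regions the shares were 88.4%, 78.2% and 78.1%, and for genes with 1 region 84.6%, 75.3% and 75.8%. In each held-out library the genes with 3 or more regions lay close to those with 2. Of the chosen genes, 18, 17 and 18 had at least 3 regions with a peak in the held-out library.

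The members were then read in the libraries that took no part in the choice. An ASC MyoG peak was named for 14 of the 59 genes (23.7%, against 10.5% of all genes with an ASC MyoD region), namely Aopep, Arhgap28, Cap2, Hip1, Itgb6, Mef2a, Mnat1, Myod1, Pip4k2a, Plxna1, Ptprd, Rbm24, Rreb1 and Sh3glb1. In genes with 2 regions the share was 15.2%, and in genes with 1 it was 8.96%, alongside the gene lengths given above. The part of gene length in these shares was not tested. Peaks in at least 2 ASC MyoG libraries were named for 4 genes (Cap2, Mnat1, Plxna1 and Ptprd), which is 6.78%, against 1.49% of all genes. By position, 10 of the 205 regions (4.88%, against 3.73% of all regions) overlapped an ASC MyoG peak. The intron 7 region of Mnat1, the most firmly called for MyoD, had a MyoG peak in all 3 libraries. The regions of Cap2 and Plxna1 with the highest mean MyoD scores had a MyoG peak in 2 libraries. This makes 3 regions with a peak in at least 2 (1.46%, against 0.554% of all regions). Single-library overlaps were at regions of Aopep, Hip1, Myod1, Pip4k2a, Rbm24, Rreb1 and Sh3glb1.

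QSC lists were short, with 139 to 174 MyoD peaks and 120 to 167 MyoG peaks, and few of their peaks were named for any gene with an ASC MyoD region. The QSC MyoD libraries named 1 member (Dscaml1, in replicate 1), which is 1.69%, against 2.9% of all genes with a region. None of the 205 regions overlapped a QSC MyoD peak, against 0.453% of all regions, and 0.151% in at least 2 QSC MyoD libraries. The QSC MyoG libraries named 5 members (Auts2, Fhit, Iffo1, Mef2c and Ptprd), which is 8.47%, against 3.47% of all genes, 4.90% of genes with 2 regions and 2.96% of genes with 1. Each was named in a single library (0 in at least 2 libraries, as for QSC MyoD, against 0.283% and 0.142% of all genes). A QSC MyoG peak overlapped 1 region, in intron 7 of Iffo1, which is 0.488%, against 0.504% of all regions, and 0.101% in at least 2 QSC MyoG libraries.

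As a share of all peaks in a library, the members took 8.30%, 8.62% and 8.36% in ASC MyoD, which the rule fixes. They took 0.873%, 0.992% and 0.782% in ASC MyoG (mean 0.883% ± 0.105, SD, n = 3), 0.585%, 0 and 0 in QSC MyoD (mean 0.195% ± 0.338), and 0.833%, 1.85% and 0.599% in QSC MyoG (mean 1.09% ± 0.666). These QSC shares stand for 1 MyoD peak and 5 MyoG peaks in all. ASC and QSC overlapped for MyoG, and the difference of -0.212 percentage points was within the spread between libraries (exact two-sided permutation p-value 0.9, adjusted 0.9). Its sign rested on QSC MyoG replicate 2, without which it was 0.166 points (exact permutation p-value 0.3). In QSCs, MyoD was below MyoG by 0.900 points (difference -0.900), with no overlap between the libraries. The closest libraries, at 0.585% for MyoD and 0.599% for MyoG, each had 1 such peak, in lists of 171 and 167 peaks. Only the length of the lists keeps these libraries apart. The exact permutation p-value of 0.1 (adjusted 0.2) is the smallest that 3 libraries against 3 allow, so no such comparison could pass 0.05.

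**Figure D5:**
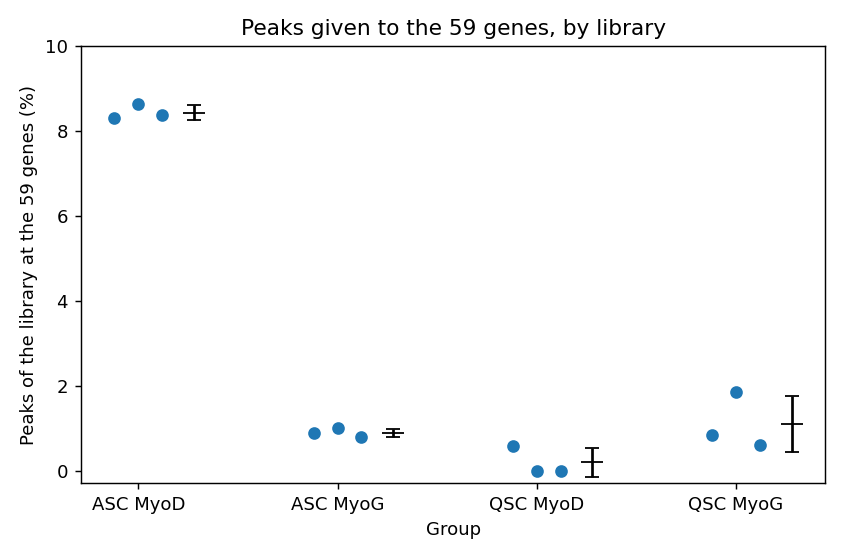
Share (%) of the peaks of each library that were named for the 59 genes, by group. Points are libraries in order of replicate number, and the bar with whiskers beside them is the mean ± SD (n = 3). ASC MyoD lies above 8% by choice of the genes, and the other libraries lie between 0 and 1.85%.

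Across 13 lists of muscle, signalling and chromatin genes, 105 of 425 listed names had any region. A few names were not in the RefSeq table and had no region (Mkl1, Mkl2, Bai1, Bai3 and Baf60c). The table held 21 of 23 muscle transcription factor names, 37 of 39 adhesion and fusion names and 38 of 39 chromatin names. No member was among the lists for E proteins, Id and Twist factors (5 of 17 genes with a region), the acetylcholine receptor and synapse (4 of 16), the sarcomere (16 of 48), the dystrophin complex (8 of 20), adhesion and fusion (8 of 39), growth factor signalling (9 of 51) or Notch and Wnt (11 of 39). Of all genes with a region 4.18% were members, so lists with 4 to 16 such genes are too small for the lack of a member to set them apart. The lists with a member are likewise small, and their counts do not set them apart either. In the sarcomere list, Myl1, Neb, Des and Flnc had 2 regions each. Cdh15 and Acta1 are listed genes whose regions carried the name Galnt2l, and each has 2 by position.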

How the data were processed

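MyoD and MyoG ChIP-seq was analysed in 12 of the 14 libraries, and the 2 input libraries were not analysed here. Per the labels and the submitters' processing notes, reads were aligned with BWA 0.7.5 to mm10 and peaks were called with MACS, whose version is not given in the sources used here. The notes also name deepTools 3.5.0. The authors called peaks per library and deposited, for each peak, its start and end (a position in bp), a score (10 times the negative log10 of its p-value), a gene name and a gene part. Lists hold no read counts, so depth is unknown.

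Peaks were merged and named as described above, with the part of the peak with the highest score. Promoters reach 3 kb from a start. Distances run between region midpoints. The members and the gene lists were chosen with earlier results of these data known. All members are named but 1, which is not reported here. Full values are given for the 12 genes with most regions (ties by the average of the mean scores of a gene's regions) and for members on the lists, and shorter accounts for the others. Groups and replicate numbers come from the sample titles. The study names biological replicates, but the labels do not say which libraries share animals, so p-values measure the spread between libraries. Exact two-sided permutation tests served for shares of peaks, Benjamini-Hochberg adjusted over 2 tests. Gene bodies, starts and sequences are from RefSeq (GRCm38.p6), and 58 of 59 names matched. Region calling was tested on simulated peak lists. Scripts used Python 3.11.15 and pandas 2.3.3. Alternatives were a score of 80, peaks in all 3 libraries, merging within 500 bp, overlap of 50% of both peaks, naming by most peaks, Gm names kept, chromosomes 1 to 19 and X, promoters within 1 kb, distinct gene names, pairing by replicate number, leaving out each library and, added after seeing the data, RefSeq naming and leaving out Galnt2l.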

Additional observations from a re-analysis of the deposited data

How the results depend on the processing

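The number of genes with 3 or more regions depended on how firmly a region had to be called. It was 14 at a score of 80 or more, 17 with a peak in all 3 libraries, 25 to 33 when an ASC MyoD library was left out (so that both others needed a peak), 56 with merging within 500 bp, 58 with an overlap of 50% and 75 with RefSeq naming, against 59. Under all 10 of the other settings of the region rule, RefSeq naming and leaving out Galnt2l aside, 8 genes had 3 or more regions (Cap2, Galnt2l, Mef2a, Mir206, Plet1, Rreb1, Tead1 and Tnp1). The members lost with merging within 500 bp were Myod1, Otog and Zfp568. The median distance was 16.1 kb at a score of 80, 21.6 kb with all 3 libraries, 33.4 kb with merging within 500 bp and 17.3 to 27.9 kb without a library. The median score was 137 at a score of 80, 108 with all 3 libraries and 91.9 to 101 without a library. The promoter share was 21.7% at a score of 80, 11.9% with all 3 libraries, 8.78% for promoters within 1 kb and 11.8% to 13.5% without a library. The intron share was 34.8% at a score of 80, 33.9% with all 3 libraries, 43.8% with merging within 500 bp, 41.7% with 50% overlap, 41.2% with Gm names kept, 41.5% with RefSeq naming, 41.1% without Galnt2l and 37.7% to 42.4% without a library. The distal share was 43.5% at a score of 80, 49.2% with all 3 libraries, 40.3% with Gm names kept, 41.1% without Galnt2l and 40.5% to 44.7% without a library. Of the members, 4 (6.78%, against 1.49% of all genes with a region) had an ASC MyoG peak in 2 or more libraries. For QSC MyoD the count was 0, against 0.142% of all genes, and 0 at member regions, against 0.151% of all regions. Counts of 0 at such shares do not set the members apart. At a score of 80 the counts were 3 for ASC MyoG and 0 for QSC MyoD. They are given without the share over all genes at that score, so they are not read as a result about the members. The cause of these shifts was not tested, beyond the smaller number of regions that the stricter settings leave by construction.

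The MyoG difference of ASC minus QSC was 0.776 points at a score of 80 (exact permutation p-value 0.4), 0.128 over distinct gene names (0.8) and -0.460 to 0.166 without a library. The QSC difference of MyoD minus MyoG was 0 at a score of 80, where neither antibody had a peak at a member, and -1.15 to -0.521 without a library. With the replicate number as a block, the exact sign-flip p-values were 1 for the MyoG difference of -0.212 points and 0.25, the smallest that 3 pairs allow, for the QSC difference of -0.900 points. Correlations of same-numbered deviations between groups ran from -0.659 to 0.964. For the tested groups they were 0.964 (ASC MyoG with QSC MyoG) and -0.340 (QSC MyoD with QSC MyoG). Each rests on 3 numbers and cannot decide whether the numbers are pairs. The labels do not say which libraries share animals, so the tests with blocks are given only as an alternative. Read depth, which is unknown, limits both peak number and score.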

Other observations

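Naming by the nearest RefSeq gene body (protein-coding or microRNA genes only, as above) brought 22 other genes to 3 or more regions. Among them, Gse1 had 4 regions by position and 0 by the deposited names, and Myc, a growth-promoting transcription factor, and Mki67, a proliferation marker, had 3 by position and 0 by the deposited names. Mir1a-1, a muscle microRNA gene, went from 1 to 3, Tet2, a DNA demethylase, from 1 to 3, and Chd7, a chromatin remodeler, from 2 to 3. Nearness to a gene body does not show that the region acts on that gene. Mef2a went from 3 to 4 and Arpp21 from 3 to 5, whereas Mef2c went from 3 to 2, since 1 of its regions lies nearer to the microRNA gene Mir3961. These genes were picked after their values had been seen.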
